A study of Homo sapiens with 15 samples.

Results

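The BCL2 family decides whether a cell keeps its mitochondria intact or releases the proteins that start caspase activation. Described here are the transcripts of 10 of its genes in NCI-H69, a classic-type small cell lung cancer line of human origin, after treatment with FB23-2, with CS2 or with DMSO. The genes were taken by symbol and role, with earlier results of these data known. They are the anti-apoptotic genes BCL2, BCL2L1 and MCL1, the effector genes BAX and BAK1, and the BH3-only genes BID, BBC3, BMF, PMAIP1 and BCL2L11. Each symbol matched 1 row among the 62754 Ensembl gene IDs of the count table, and all 10 were among the 19781 genes that passed the filter on low counts. FB23-2 and CS2 are small molecules that the series names as inhibitors of FTO, a demethylase of m6A in RNA, and DMSO is the solvent control. Brequinar, a blocker of the pyrimidine enzyme DHODH, is another name of CS2. Each group had 3 libraries from separate replicates, which the submitters call biological. All 9 libraries share the same cell line and no other alteration is given for any group, so the results hold for a single line. The sources used here give no dose or duration, so whether the compounds are compared at matched doses is not known. The labels list 6 more samples, of the line H82, which were not analysed.

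The family works through binding between its members. Anti-apoptotic proteins hold the effectors BAX and BAK in check at the mitochondrial outer membrane, and BH3-only proteins bind the anti-apoptotic proteins, and in some cases the effectors, and release that hold. Activated effectors form pores through which cytochrome c leaves the mitochondria, after which APAF1 and caspase 9 form the apoptosome. The members are partly selective: the product of PMAIP1, NOXA, binds MCL1 above all, while the products of BBC3 (PUMA) and BCL2L11 (BIM) bind all the main anti-apoptotic proteins. Small cell lung cancer is known for high BCL2. These are statements about proteins, and what follows are transcript levels.

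Library totals ranged from 29916267 to 45022633 counts, and 3 counts corresponded to between 0.0666 and 0.101 CPM (counts scaled to the library size and by TMM). FB23-2 replicate 2 stood apart. It differed from the other FB23-2 libraries by a chi-square per degree of freedom of 50.1 and 48.1, against 4.21 to 14.1 for all other pairs within a group, and mitochondrial genes took 11% of its counts, against 6.83% and 6.91% in FB23-2 replicates 1 and 3. The fold changes of the members and of the further family and pathway genes called with FB23-2 are therefore given with and without it. The exceptions are TNFRSF21, BIRC3 and TP63, whose FB23-2 values are given with it alone. Of 8 neuroendocrine markers, 7 averaged at least 25.7 CPM in every group, with INSM1 at 611 CPM with FB23-2, 703 CPM with CS2 and 859 CPM with DMSO, and NEUROD1 averaged under 1 CPM in each group. Of these 8, 6 were called lower and 1 higher with FB23-2, and 5 lower and 1 higher with CS2, where 25.3% to 26.7% of all genes tested were called lower and 24.3% to 25.4% higher. Of 5 fibroblast, 5 leukocyte and 4 endothelial markers, 5 in all passed the filter on low counts, and COL3A1, DCN, CD3E and KDR were at 0 in all 9 libraries. COL1A2 was at 12.0 CPM with FB23-2, 35.1 CPM with CS2 and 53 CPM with DMSO, and was called lower with both compounds. COL1A1, PTPRC, CD14 and VWF averaged at most 2.6 CPM in a group. With FB23-2, COL1A1 was called higher (log2 fold change 0.88) and PTPRC (-1.14), CD14 (-0.63) and VWF (-3.49) lower, and with CS2 PTPRC (-1.06) and VWF (-2.54) were called lower. Whether any of these shifts bears on the BCL2 family values was not tested. In a bulk sample, a change in the make-up of the cells and a change of RNA within each cell cannot be told apart.

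Under both compounds the survival transcripts BCL2 and BCL2L1 were lower than with DMSO, and the BH3-only transcripts BBC3, BMF and PMAIP1 were higher. The compounds parted on the remaining genes: BAX and BID were lower with FB23-2 and higher with CS2, and BAK1, BCL2L11 and MCL1 were lower with FB23-2 while none of them passed the test with CS2. Of the 10 members, 3 were called higher and 7 lower with FB23-2, where 25.4% of all genes tested were called higher and 26.7% lower. With CS2, 5 were called higher and 2 lower, where 24.3% of all genes were called higher and 25.3% lower. A gene was called where the quasi-likelihood test of edgeR gave a p under 0.05 after Benjamini-Hochberg adjustment over the 19781 genes, and each adjusted p in the text comes from that test. The median log2 fold change of the members was -0.36 with FB23-2 and 0.24 with CS2, against medians of 0 over all genes in both comparisons. The median size of change regardless of sign was 0.55 for the members and 0.42 for all genes with FB23-2, and 0.47 and 0.41 with CS2. Without FB23-2 replicate 2 the members again gave 3 called higher and 7 called lower with FB23-2.

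**Figure D1:**
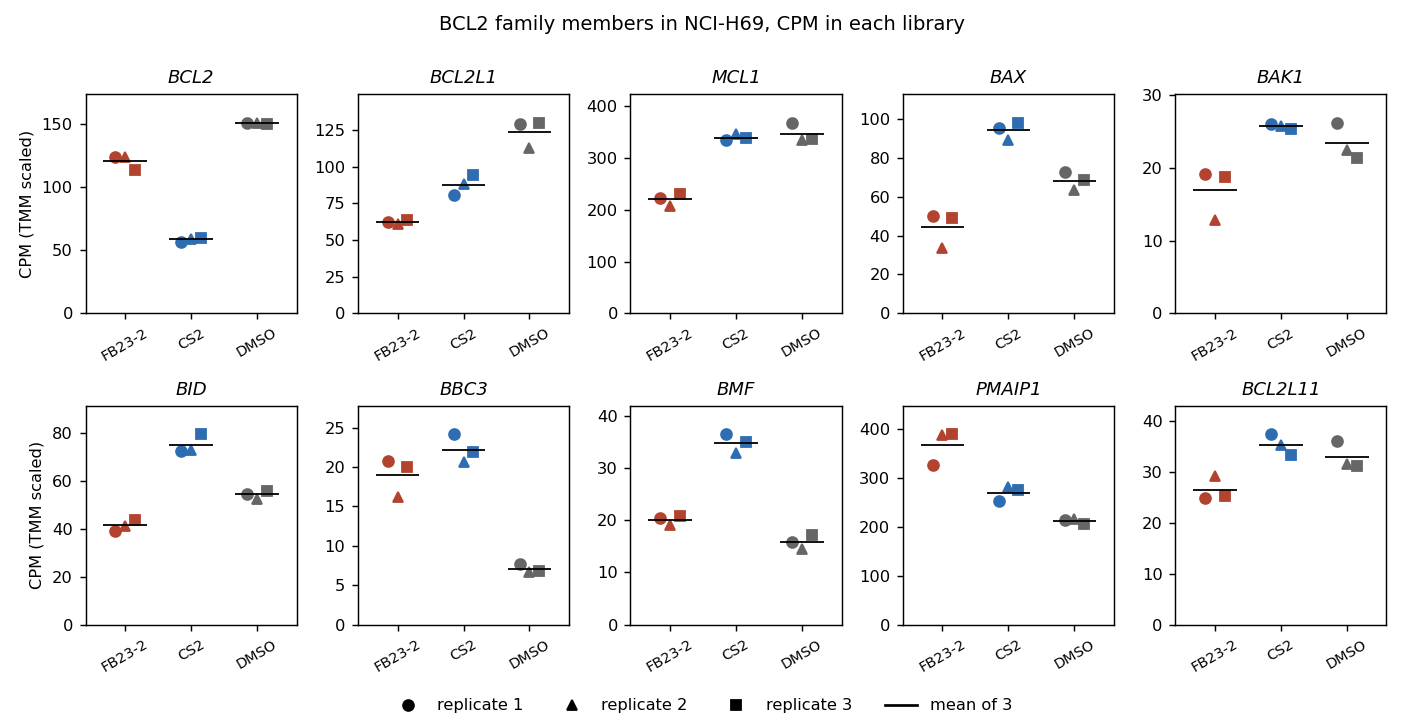
CPM (vertical axis, from 0, scaled by TMM) of each of the 10 genes in each library with FB23-2, CS2 and DMSO; symbols mark the replicate and lines the mean of 3. BCL2 is at 56.9 to 60.1 CPM with CS2, below every other library, and BAX and BAK1 have their lowest value in FB23-2 replicate 2.

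BCL2, the founding survival gene of the family, was the member that CS2 lowered most. It had 124, 124 and 114 CPM with FB23-2, 56.9, 59.1 and 60.1 CPM with CS2 and 151, 151 and 150 CPM with DMSO. The 3 groups did not overlap, and the CS2 libraries lay together far below the rest. With CS2 the log2 fold change was -1.36 ± 0.07 (SE, adjusted p = 2.17e-11), 2.56-fold lower than with DMSO. With FB23-2 it was -0.32 ± 0.07 (adjusted p = 0.000865), and -0.34 without FB23-2 replicate 2. BCL2 lies on chromosome 18, 63123346 to 63320128 on the minus strand (GRCh38), and at 196.8 kb it spans far more of the genome than any other member. Genes of such span shifted as a group with CS2: the 935 tested genes of 150 to 250 kb had a median log2 fold change of -0.32 with CS2 (quartiles -0.67 and -0.01), 52.1% of them were called lower, and their median with FB23-2 was 0.04. The 2692 genes of up to 10 kb had a median of 0.14 with CS2. With an offset for GC content and span, the BCL2 change with CS2 was -0.94 and was again called.

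The 250 bases before the annotated start of BCL2 are shown because it is the anti-apoptotic member that moved furthest. RefSeq promoters on GRCh38.p14 were matched for 9 of the 10 members, all but MCL1, and matches on both strands are given for 5 motifs of factors known to act on the family: the cyclic AMP response element (CRE) TGACGTCA, its core TGACG, the C/EBP-ATF element TGATGNAA, the E-box CACGTG and the E2F element TTTNNCGC. Of all 35116 promoters searched, these held a match in 1.65%, 21.2%, 3.14%, 6.34% and 5.92%. A match is a description of letters and not evidence of binding. In each sequence below, capitals mark the matches, and positions are counted backwards from the start. BCL2, chr18:63319770-63320019 on the minus strand, held a CRE core at -225 to -221 and no match to the others.
BCL2: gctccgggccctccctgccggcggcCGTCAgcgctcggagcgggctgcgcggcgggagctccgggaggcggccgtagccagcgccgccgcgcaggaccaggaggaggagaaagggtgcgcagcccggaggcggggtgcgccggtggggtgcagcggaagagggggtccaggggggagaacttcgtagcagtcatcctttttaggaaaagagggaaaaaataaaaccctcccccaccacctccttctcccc

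BCL2L1, which encodes BCL-XL, was lower with both compounds and fell further with FB23-2. It had 62.3, 60.7 and 64.0 CPM with FB23-2, 80.7, 88.3 and 94.3 CPM with CS2 and 129, 113 and 130 CPM with DMSO. The groups did not overlap and each held a narrow range. On the log2 scale the change was -0.99 ± 0.08 with FB23-2 (adjusted p = 7.95e-09), -0.97 without FB23-2 replicate 2, and -0.50 ± 0.08 with CS2 (adjusted p = 5.15e-05). The FB23-2 level averaged 62.3 ± 1.6 CPM, against 124 ± 9.4 CPM with DMSO (SD, n = 3 each). The antisense gene ABALON overlaps 43.0% of the exon bases of BCL2L1 and held at most 2 counts in any library. Whether counting used strand is not stated, so this low count does not show how reads of the shared bases were assigned. Of the promoters matched for BCL2L1, that at chr20:31723964-31724213 (minus strand) held a CRE core at -201 to -197 and an E2F element at -111 to -104. A further promoter, at chr20:31722869-31723118, held no match to the motifs.

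MCL1 encodes a short-lived survival protein and was lower with FB23-2. It had 222, 208 and 230 CPM with FB23-2, 334, 346 and 338 CPM with CS2 and 368, 335 and 337 CPM with DMSO. The FB23-2 libraries lay below all others, and the CS2 and DMSO libraries overlapped. FB23-2 changed it by a log2 value of -0.65 ± 0.07 (adjusted p = 2.43e-07), and -0.61 without replicate 2. With CS2 it was -0.03 ± 0.07 (95% interval -0.18 to 0.12, adjusted p = 0.742). The sign of the CS2 value turned, to 0.02, without DMSO replicate 1 (adjusted p = 0.889) and with the offset for GC content and span (adjusted p = 0.842), with adjusted p from 0.617 to 0.893 over the alternatives.

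**Figure D2:**
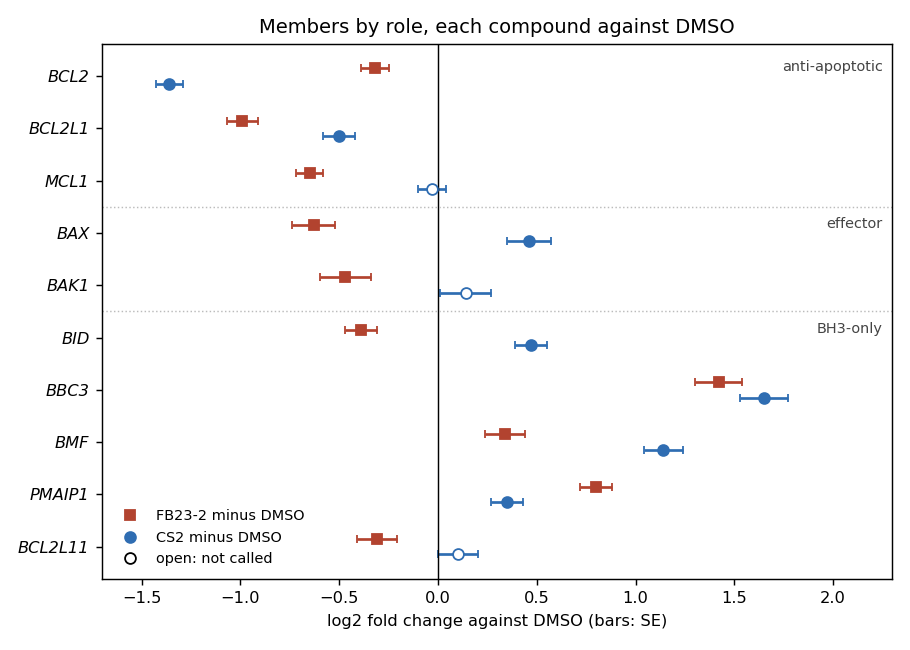
log2 fold change against DMSO (horizontal axis) with its SE for the 10 members, squares for FB23-2 and circles for CS2, open where not called; dotted lines part the roles. The FB23-2 and CS2 values lie on opposite sides of 0 for BAX and BID, and on the same side for BCL2, BCL2L1, BBC3, BMF and PMAIP1.

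The effectors were lower with FB23-2, and BAX was higher with CS2. Both are short genes, BAX at 7.0 kb and BAK1 at 7.7 kb, as are MCL1 (5.2 kb) and PMAIP1 (4.4 kb). Genes of up to 10 kb had a median log2 fold change of -0.16 with FB23-2, with 36.9% called lower and 19.5% higher. With CS2 their median was 0.14, with 32.5% called higher and 18.5% lower. BAX, a pore-forming protein that moves from the cytosol to mitochondria, had 50.1, 33.7 and 48.8 CPM with FB23-2, 95.3, 88.9 and 97.9 CPM with CS2 and 72.6, 63.4 and 68.4 CPM with DMSO. The groups did not overlap, and FB23-2 replicate 2 was the lowest library. Its log2 fold change was -0.63 ± 0.11 with FB23-2 (adjusted p = 0.000139) and 0.46 ± 0.11 with CS2 (adjusted p = 0.00207). Without FB23-2 replicate 2 the FB23-2 value was -0.46, and with the offset for GC content and span it was -0.40, called in both cases.

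BAK1, which encodes the effector that sits in the mitochondrial outer membrane from the outset, had 19.2, 12.8 and 18.7 CPM with FB23-2, 26.1, 25.8 and 25.3 CPM with CS2 and 26.2, 22.6 and 21.4 CPM with DMSO. Every FB23-2 library lay below every DMSO library, with replicate 2 again lowest, and the CS2 and DMSO libraries overlapped. The log2 fold change was -0.47 ± 0.13 with FB23-2 (adjusted p = 0.0047) and -0.30 without replicate 2 (adjusted p = 0.0167). The call was lost with the offset for GC content and span, at -0.25 (adjusted p = 0.0568, with a range from 0.000138 to 0.0568 over the alternatives). With CS2 it was 0.14 ± 0.13 (95% interval -0.13 to 0.41, adjusted p = 0.384). The pseudogene BAK1P1 shares 12.3% of the 50-base windows of BAK1 and had between 0.118 and 0.699 CPM in the 9 libraries, so some reads of BAK1 could be assigned to either.

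The BAX promoter is shown because the compounds moved BAX in opposite directions and because its letters are unusual among the members. BAX, chr19:48954625-48954874 on the plus strand, held 4 E-boxes, the motif of MYC and related factors, at -138, -93, -45 and -14 as first bases. Of all promoters searched, 5 held 4 or more E-boxes (0.0142%). The first E-box overlaps a CRE core at -134 to -130.
BAX: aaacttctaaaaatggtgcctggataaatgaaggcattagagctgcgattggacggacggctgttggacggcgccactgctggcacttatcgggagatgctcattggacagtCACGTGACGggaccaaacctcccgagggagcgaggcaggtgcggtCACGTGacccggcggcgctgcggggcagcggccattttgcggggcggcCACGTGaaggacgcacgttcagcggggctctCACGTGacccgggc

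The BH3-only genes held the largest increases. BBC3, which encodes PUMA, had 20.8, 16.2 and 20.0 CPM with FB23-2, 24.2, 20.6 and 21.9 CPM with CS2 and 7.74, 6.68 and 6.82 CPM with DMSO. All 6 treated libraries lay well above the DMSO libraries, and the FB23-2 and CS2 libraries overlapped. BBC3 had a log2 fold change of 1.42 ± 0.12 with FB23-2 (adjusted p = 1.25e-08), 1.53 without replicate 2, and 1.65 ± 0.12 with CS2 (adjusted p = 1.83e-09). The level was 2.68-fold higher with FB23-2 and 3.14-fold higher with CS2 than with DMSO.

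PMAIP1, which encodes NOXA, had 327, 389 and 390 CPM with FB23-2, 253, 282 and 276 CPM with CS2 and 214, 216 and 205 CPM with DMSO. The groups did not overlap, and FB23-2 was highest. The log2 fold change was 0.80 ± 0.08 with FB23-2 (adjusted p = 7.28e-08), 0.76 without replicate 2, and 0.35 ± 0.08 with CS2 (adjusted p = 0.00104).

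BMF encodes a BH3-only protein that is held at the cytoskeleton in healthy cells. It had 20.4, 19.0 and 20.8 CPM with FB23-2, 36.5, 32.8 and 35.0 CPM with CS2 and 15.8, 14.4 and 17.1 CPM with DMSO. The groups did not overlap, and the CS2 libraries stood clear above the others. For BMF the log2 fold change was 0.34 ± 0.10 with FB23-2 (adjusted p = 0.00735), 0.38 without replicate 2, and 1.14 ± 0.10 with CS2 (adjusted p = 1.56e-08). Over the alternatives the FB23-2 value lay between 0.28 and 0.42, with adjusted p from 0.000453 to 0.0498, so the call came close to the threshold. The antisense gene BMF-AS1 overlaps 8.46% of the exon bases of BMF.

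The promoters of the 3 BH3-only genes that were higher with both compounds are shown together, since they moved in the same direction. None of the 3 held a full CRE, a C/EBP-ATF element or an E2F element in these letters. PMAIP1 (chr18:59899746-59899995, plus strand) held a CRE core at -55 to -51. BMF (chr15:40108880-40109129, minus strand) held another at -57 to -53, 2 bases farther from the start. BBC3 (chr19:47232668-47232917, minus strand) held an E-box at -232 to -227.
PMAIP1: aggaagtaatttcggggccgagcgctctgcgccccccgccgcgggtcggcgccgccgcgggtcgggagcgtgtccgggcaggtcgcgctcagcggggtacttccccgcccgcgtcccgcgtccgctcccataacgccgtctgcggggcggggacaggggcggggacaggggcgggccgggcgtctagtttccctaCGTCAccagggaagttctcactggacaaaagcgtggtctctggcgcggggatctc
BMF: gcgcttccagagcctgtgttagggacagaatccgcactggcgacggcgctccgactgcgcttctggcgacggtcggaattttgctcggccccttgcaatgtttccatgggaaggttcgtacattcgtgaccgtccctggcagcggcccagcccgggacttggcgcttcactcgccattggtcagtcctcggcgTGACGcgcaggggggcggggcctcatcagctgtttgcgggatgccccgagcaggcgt
BBC3: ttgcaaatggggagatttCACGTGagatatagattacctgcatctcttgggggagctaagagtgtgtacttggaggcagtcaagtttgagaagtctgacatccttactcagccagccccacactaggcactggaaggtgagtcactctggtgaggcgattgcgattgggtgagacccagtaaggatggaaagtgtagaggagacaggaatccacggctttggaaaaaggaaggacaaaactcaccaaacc

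BID, whose product is cut by caspase 8 and so links death receptors to mitochondria, had 39.1, 41.4 and 43.9 CPM with FB23-2, 72.7, 73.1 and 79.7 CPM with CS2 and 54.7, 52.6 and 56.0 CPM with DMSO. The DMSO libraries lay between the 2 treated groups with no overlap. The log2 fold change was -0.39 ± 0.08 with FB23-2 (adjusted p = 0.000529), also -0.39 without replicate 2, and 0.47 ± 0.08 with CS2 (adjusted p = 9.68e-05).

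BCL2L11, which encodes BIM, had 24.8, 29.2 and 25.3 CPM with FB23-2, 37.4, 35.3 and 33.3 CPM with CS2 and 36.0, 31.5 and 31.2 CPM with DMSO. The FB23-2 libraries lay below the DMSO libraries by a small margin, and the CS2 and DMSO libraries overlapped. The log2 fold change was -0.31 ± 0.10 with FB23-2 (adjusted p = 0.0113), -0.39 without replicate 2 (adjusted p = 0.0011), and 0.10 ± 0.10 with CS2 (95% interval -0.10 to 0.31, adjusted p = 0.397). That FB23-2 call did not survive leaving out DMSO replicate 1 (-0.24, adjusted p = 0.0744), FB23-2 replicate 1 (-0.26, adjusted p = 0.0571) or FB23-2 replicate 3 (-0.27, adjusted p = 0.0578), with a range from 0.0011 to 0.0744 over the alternatives. MIR4435-2HG, on the opposite strand, overlaps 10.9% of the exon bases of BCL2L11 and had 6.41, 6.57 and 6.94 CPM with FB23-2, against 1.78 to 2.66 CPM with DMSO. The sources used here do not say whether counting used strand, so reads of the pair may be mixed.

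FB23-2 set directly against CS2 separated 9 of the 10 members. In this comparison 2 members were called higher and 7 lower, where 29.7% of all genes tested were called higher and 30% lower. Both compounds are compared with the same DMSO libraries above, and this contrast is the test of their difference. BCL2 was higher with FB23-2 than with CS2 by a log2 fold change of 1.03 ± 0.07 (adjusted p = 4.46e-10), and PMAIP1 by 0.45 ± 0.08 (adjusted p = 5.97e-05). BAX was lower with FB23-2 than with CS2 at -1.09 ± 0.12 (adjusted p = 1.19e-07), as was BID at -0.86 ± 0.08 (adjusted p = 3.27e-08). BMF was lower at -0.80 ± 0.10, MCL1 at -0.62 ± 0.07, BAK1 at -0.61 ± 0.13, BCL2L1 at -0.49 ± 0.08 and BCL2L11 at -0.42 ± 0.10, with adjusted p from 2.95e-07 for MCL1 to 0.00113 for BCL2L11. With the offset for GC content and span PMAIP1 was at 0.24, BAK1 at -0.28 and BCL2L1 at -0.32, each still called. Over the alternatives BCL2 lay between 0.71 and 1.08 and BAX between -1.18 and -0.76, called in each. Genes of 150 to 250 kb, the span of BCL2, had a median of 0.34 here, with 54.7% called higher and 16.0% lower. Genes of up to 10 kb, the span of BAX, had a median of -0.30, with 46.8% called lower and 17.6% higher. BBC3 did not pass, at -0.23 ± 0.12 (95% interval -0.47 to 0.01, adjusted p = 0.0969). Its sign turned with the offset for GC content and span, to 0.40 (adjusted p = 0.00137, with a range from 0.00137 to 0.352 over the alternatives). Without FB23-2 replicate 2 the same counts were found, 2 called higher and 7 lower, with BCL2 at 1.02, PMAIP1 at 0.41, BAX at -0.93, BID at -0.86, BMF at -0.76, MCL1 at -0.58, BCL2L11 at -0.50, BCL2L1 at -0.47, BAK1 at -0.44 and BBC3 at -0.12.

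Levels between genes were compared per length, as TPM, which divides counts by the union of annotated exons and scales each library to the same sum. With DMSO, PMAIP1 had the highest level at 359 ± 8.6 TPM (SD, n = 3) and MCL1 the next at 300.0 ± 10 TPM. BCL2L1 followed at 141 ± 11 TPM and BAX at 99.6 ± 5.5 TPM. These 4 did not overlap in their libraries. BCL2 at 48.4 ± 0.95 TPM and BID at 46.3 ± 1.9 TPM were neighbours whose libraries overlapped, and BAK1 was at 39.9 ± 3.4 TPM. BCL2L11 had 18.7 ± 1.1 TPM, BMF 11.0 ± 1.0 TPM and BBC3 8.42 ± 0.52 TPM, and these last 3 did not overlap. Taken over the longest transcript in place of the exon union, the levels of BAX, PMAIP1 and MCL1 became 145, 314 and 254 TPM, BAX moved above BCL2L1 (137 TPM), BID (63.0 TPM) above BCL2 (58.2 TPM), and BBC3 (11.1 TPM) above BMF (9.72 TPM). By the exon union, with FB23-2 the order of the first 7 genes by mean was the same as with DMSO, from PMAIP1 at 597 ± 53 TPM to BAK1 at 28.1 ± 8.1 TPM, and BBC3 at 21.9 ± 4.7 TPM stood above BCL2L11 at 14.3 ± 0.096 TPM and BMF at 13.4 ± 1.8 TPM. Many neighbours in the FB23-2 order overlapped in their libraries: BCL2L1 with BAX, BCL2 with BID, BID with BAK1, BAK1 with BBC3, and BCL2L11 with BMF. Over the longest transcript the FB23-2 order changed too, with BBC3 (29.3 TPM) above BAK1 (21.7 TPM). With CS2, BCL2 had the lowest mean of all members by the exon union, at 17.7 ± 0.63 TPM, next to BCL2L11 at 18.9 ± 1.2 TPM with overlapping libraries, and BAX at 129 ± 9.3 TPM stood above BCL2L1 at 94.2 ± 7.9 TPM. Over the longest transcript BCL2 was not the lowest with CS2, at 21.7 TPM, above BMF (20.4 TPM) and BCL2L11 (18.6 TPM).

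**Figure D3:**
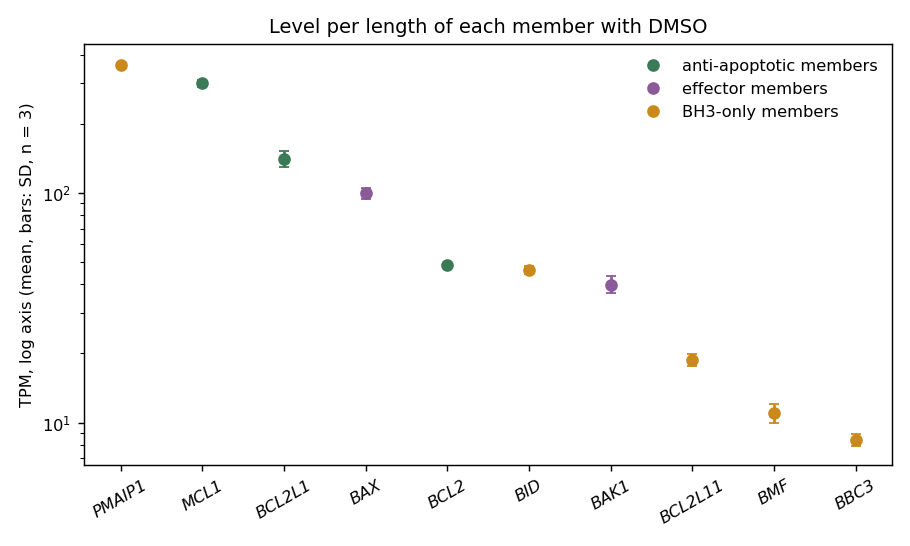
TPM with DMSO (vertical log axis, mean with SD, n = 3) of the 10 members in descending order, coloured by role. PMAIP1 at 359 TPM and BBC3 at 8.42 TPM, both BH3-only genes, mark the ends of the range.

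Summing the chosen members by role gives a balance of their transcripts in each library, as a description with no test. Other family genes, such as BCL2L2 and HRK, were not in the sums. The summed TPM of the 5 BH3-only genes over that of the 3 anti-apoptotic genes was 2.11, 2.57 and 2.43 with FB23-2, 1.41, 1.45 and 1.44 with CS2 and 0.875, 0.957 and 0.887 with DMSO. Every treated library lay above 1 and every DMSO library below it. The mean ratio was 2.37 ± 0.24 with FB23-2, 1.43 ± 0.018 with CS2 and 0.906 ± 0.044 with DMSO (SD, n = 3 each). The ratio rests mainly on a single gene on each side: PMAIP1 made up 87.7% ± 1.1 of the BH3-only sum with FB23-2, 77.2% ± 1.5 with CS2 and 80.9% ± 0.9 with DMSO. MCL1 made up 63.4% ± 1.1 of the anti-apoptotic sum with FB23-2, 71.2% ± 1.4 with CS2 and 61.3% ± 1.3 with DMSO. Without this pair the ratio was 0.778, 0.772 and 0.821 with FB23-2, 1.24, 1.08 and 1.08 with CS2 and 0.446, 0.455 and 0.435 with DMSO. The treated libraries again lay above the DMSO libraries, and the order of the compounds was turned round.

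**Figure D4:**
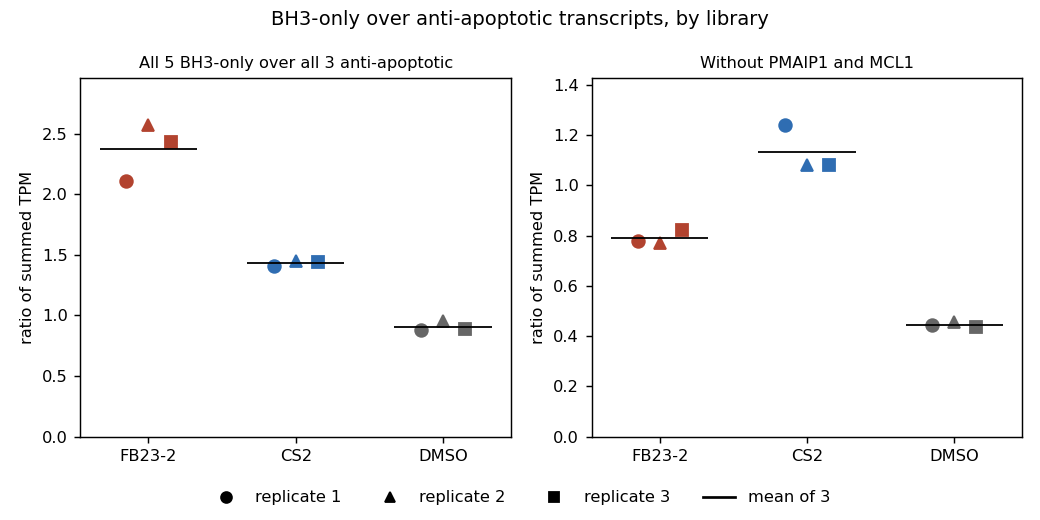
Ratio of summed TPM of BH3-only over anti-apoptotic members (vertical axis, from 0) in each library with FB23-2, CS2 and DMSO, for all members on the left and without PMAIP1 and MCL1 on the right; symbols mark the replicate and lines the mean of 3. FB23-2 is highest on the left at 2.11 to 2.57 and CS2 is highest on the right at 1.08 to 1.24.

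The nearest genes in pattern were found among 10144 of the tested genes, as the smallest distance over the 9 libraries between log2 CPM values taken relative to the DMSO mean. These genes averaged at least 10 CPM in a group, and clone, LINC, antisense and pseudogene names were left out. Nearest to BCL2 were HNRNPA1L3 (distance 0.19), SLIT2 (0.25) and PRDM10 (0.26), with log2 fold changes between -1.34 and -1.27 with CS2. Nearest to BAX were F12 (0.15), SLC43A2 (0.23) and GAREM2 (0.29). Nearest to BBC3 were PDLIM7 (0.45), SAT1 (0.47) and UNC119 (0.52), so BBC3 had no neighbour as close as those of the other pair. These are likenesses in 9 libraries of 3 groups and carry no test.

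Beyond the 10 members, 13 other genes of the family were looked at, of which 10 were tested. With FB23-2, 3 of the 10 were called higher and 4 lower, and with CS2 1 was called higher and 4 lower, where all genes gave 25.4% higher and 26.7% lower with FB23-2 and 24.3% higher and 25.3% lower with CS2. HRK, a BH3-only gene known from neurons, rose furthest: it had 32.9, 34.5 and 38.1 CPM with FB23-2, 8.11, 8.02 and 9.41 CPM with CS2 and 4.39, 5.22 and 4.35 CPM with DMSO. The groups did not overlap, and the FB23-2 libraries stood far above the others. Its log2 fold change was 2.92 ± 0.12 with FB23-2 (adjusted p = 4.85e-13), and 2.94 without replicate 2, larger than that of any of the 10 members, and 0.88 ± 0.13 with CS2 (adjusted p = 9.53e-06). The HRK promoter held a C/EBP-ATF element at -75 to -68 and a CRE core at -16 to -12.

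BNIP3L, which encodes the mitophagy receptor NIX, rose with FB23-2 at 1.26 ± 0.11 (adjusted p = 8.81e-09, and 1.19 without replicate 2) and was at 0.18 ± 0.11 with CS2 (adjusted p = 0.174). With the offset for GC content and span the CS2 value was called, at 0.41 (adjusted p = 0.00296). BCL2L13, a further mitophagy receptor, was higher with FB23-2 at 0.66 ± 0.08 (adjusted p = 6.29e-07, and 0.64 without replicate 2) and lower with CS2 at -0.35 ± 0.08 (adjusted p = 0.000773), and at -0.21 with the offset. BCL2L2, which encodes the survival protein BCL-W, was at 0.14 ± 0.09 with FB23-2 (adjusted p = 0.215, called at 0.25 without replicate 2 and at 0.22 with the offset) and lower with CS2 at -0.41 ± 0.09 (adjusted p = 0.00115). It shares 24.3% of its exon bases with other genes, among them a read-through gene, and its counts are uncertain. BOK, an effector-like gene near the floor of detection, was lower with FB23-2 at -2.57 ± 0.49 (-2.71 without replicate 2), with 2 to 8 counts in a library against 21 to 52 with DMSO. With CS2 it was at -1.39 ± 0.44 (adjusted p = 0.0133), no longer called without DMSO replicate 1 (-1.08) or CS2 replicate 3 (-1.09). BCL2L15 was lower with both compounds from a DMSO mean of 1.13 CPM, at -1.49 ± 0.45 with FB23-2 (-1.13 without replicate 2 and -2.28 without replicate 3) and -3.12 ± 0.55 with CS2. With FB23-2 the BH3-only genes BAD (-0.49 ± 0.15, adjusted p = 0.00908) and BIK (-0.83 ± 0.26, adjusted p = 0.0122) were also lower, at -0.31 and -0.71 without replicate 2. The BAD call was lost without DMSO replicate 1 (-0.39) and with the offset for GC content and span (-0.18), and the BIK call without FB23-2 replicate 3 (-0.63). BNIP3 and BCL2L12 passed with neither compound, though BCL2L12 was called lower with CS2 with the offset (-0.44, adjusted p = 0.043) and without DMSO replicate 2 (-0.48, adjusted p = 0.042). BAD, not called with CS2, was called lower with it at -0.53 with the offset and at -0.30 without FB23-2 replicate 2 or in a fit of CS2 and DMSO alone. BIK, not called with CS2, was called higher in that fit, at 0.51. BCL2A1, BCL2L10 and BCL2L14 averaged at most 0.0674 CPM in a group and were not tested.

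Downstream of the pore, 19 genes of the mitochondrial apoptosis machinery were tested. With FB23-2, 6 were called higher and 5 lower, and with CS2 7 were called higher and 2 lower. Over all genes the shares were 25.4% higher and 26.7% lower with FB23-2, and 24.3% and 25.3% with CS2. CASP9, the initiator of the apoptosome, was higher with FB23-2 at 1.45 ± 0.19 (adjusted p = 2.9e-06, and 1.48 without replicate 2). DFFB, which encodes the nuclease that cuts DNA in apoptosis, fell with both, at -1.35 ± 0.14 with FB23-2 (-1.24 without replicate 2) and -1.06 ± 0.14 with CS2. BIRC5, which encodes survivin and is known as a mitotic gene, was lower with FB23-2 at -0.89 ± 0.08 (-0.80 without replicate 2). With CS2 BIRC5 was higher, at 0.21 ± 0.08 (adjusted p = 0.0402). BIRC3, a further inhibitor of apoptosis, was higher with both, at 0.76 ± 0.22 with FB23-2 (adjusted p = 0.00725) and 0.83 ± 0.22 with CS2. Its level was low, at 2.28 CPM with FB23-2 and 2.4 CPM with CS2, against 1.35 CPM with DMSO. The median over the list was 0.14 with FB23-2 and 0.09 with CS2.

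Of 11 death receptor genes 10 were tested, and 4 were called higher and 2 lower with each compound, where 25.4% of all genes were higher and 26.7% lower with FB23-2, and 24.3% higher and 25.3% lower with CS2. CFLAR, which encodes the caspase 8 inhibitor c-FLIP, fell with both, to 22.4 ± 2.2 CPM with FB23-2 and 32.2 ± 0.95 CPM with CS2, against 43.4 ± 0.81 CPM with DMSO. Its log2 fold change with FB23-2 was -0.96 ± 0.09, and -0.89 without replicate 2. FAS, a death receptor gene, was higher with both but low, at 1.45 ± 0.26 CPM with FB23-2 and 1.90 ± 0.54 CPM with CS2, against 0.77 ± 0.13 CPM with DMSO. Its log2 fold change with FB23-2 was 0.91 ± 0.28. The FB23-2 call of FAS was lost without DMSO replicate 3, at 0.82, and kept without FB23-2 replicate 2, at 1.05. CASP8, the initiator that cuts BID, was higher with FB23-2 at 0.67 ± 0.16 (adjusted p = 0.00154, and 0.54 without replicate 2). The death receptor gene TNFRSF21 was higher with both, at 0.49 ± 0.08 with FB23-2 (adjusted p = 3.65e-05) and 0.58 ± 0.08 with CS2 (adjusted p = 5.77e-06). The call of the receptor gene TNFRSF10A with FB23-2, at 0.87 ± 0.34 (adjusted p = 0.041), was lost without FB23-2 replicate 2, at 0.43 (adjusted p = 0.337, with a range from 0.0129 to 0.337 over the alternatives). It was also lost without any single DMSO replicate and, at 0.76, with the replicate block (adjusted p = 0.0529).

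Of 14 transcription factors known to act on the family 13 were tested, with 6 called higher and 3 lower with FB23-2 and 5 higher and 3 lower with CS2. All genes gave 25.4% higher and 26.7% lower with FB23-2, and 24.3% higher and 25.3% lower with CS2. DDIT3, which encodes the stress factor CHOP, rose with both, at 2.52 ± 0.10 with FB23-2 (adjusted p = 2.32e-13, and 2.59 without replicate 2) and 0.90 ± 0.10 with CS2 (adjusted p = 3.46e-07). ATF3 rose by 3.29 ± 0.13 with FB23-2 (3.35 without replicate 2) and 1.70 ± 0.13 with CS2. ATF4, the central factor of the integrated stress response and a known inducer of PMAIP1, was at 854 ± 59 CPM with FB23-2 and 229 ± 12 CPM with CS2, against 338 ± 31 CPM with DMSO, and was higher with FB23-2 (1.34 ± 0.08, adjusted p = 6.88e-11, and 1.28 without replicate 2) and lower with CS2 (-0.56 ± 0.08, adjusted p = 8.17e-06). CEBPB was higher with FB23-2 at 1.59 ± 0.15 (1.53 without replicate 2), and E2F1, whose product is known to induce BH3-only genes, was higher with CS2 at 0.76 ± 0.08 and at 0.13 ± 0.08 with FB23-2 (adjusted p = 0.145), where it was called at 0.20 without replicate 2 and at 0.41 with the offset for GC content and span (adjusted p = 1.68e-05). TP63 was lower with both compounds from 1.95 CPM with DMSO, at -0.94 ± 0.25 with FB23-2 (adjusted p = 0.0043) and -1.35 ± 0.27 with CS2. With that offset the CS2 value of TP63 was -0.79.

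Of 7 genes that control the turnover of MCL1 and BH3-only proteins, 5 were called lower with CS2, and the other genes, TRIM17 (-0.12 ± 0.31) and MARCHF5 (-0.09 ± 0.08), did not pass. Of all genes tested 25.3% were called lower with CS2, but 4 of the 5 (USP9X, FBXW7, BTRC and HUWE1) span 150.9 to 215.5 kb, and 52.1% of genes of 150 to 250 kb were called lower with CS2. USP9X, which encodes a deubiquitinase that stabilises MCL1, was lower with CS2 at -0.68 ± 0.07 (adjusted p = 1.26e-07), and the ubiquitin ligase genes FBXW7, which acts on MCL1, at -0.64 ± 0.10, FBXO10, which acts on BCL2, at -0.53 ± 0.12 and BTRC at -0.50 ± 0.09. With the offset for GC content and span FBXW7 (-0.17, adjusted p = 0.093) and BTRC (-0.06, adjusted p = 0.559) were no longer called, and USP9X was called at -0.38. The gene AL513165.2 overlaps 48.0% of the exon bases of FBXO10, so the counts of FBXO10 are uncertain. With FB23-2 the list held 1 call, where 25.4% of all genes tested were called higher and 26.7% lower. The gene called was FBXO10, lower at -0.30 ± 0.12 (adjusted p = 0.0448). That call was lost under several alternatives, at -0.24 (adjusted p = 0.121) without FB23-2 replicate 2.

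**Figure D5:**
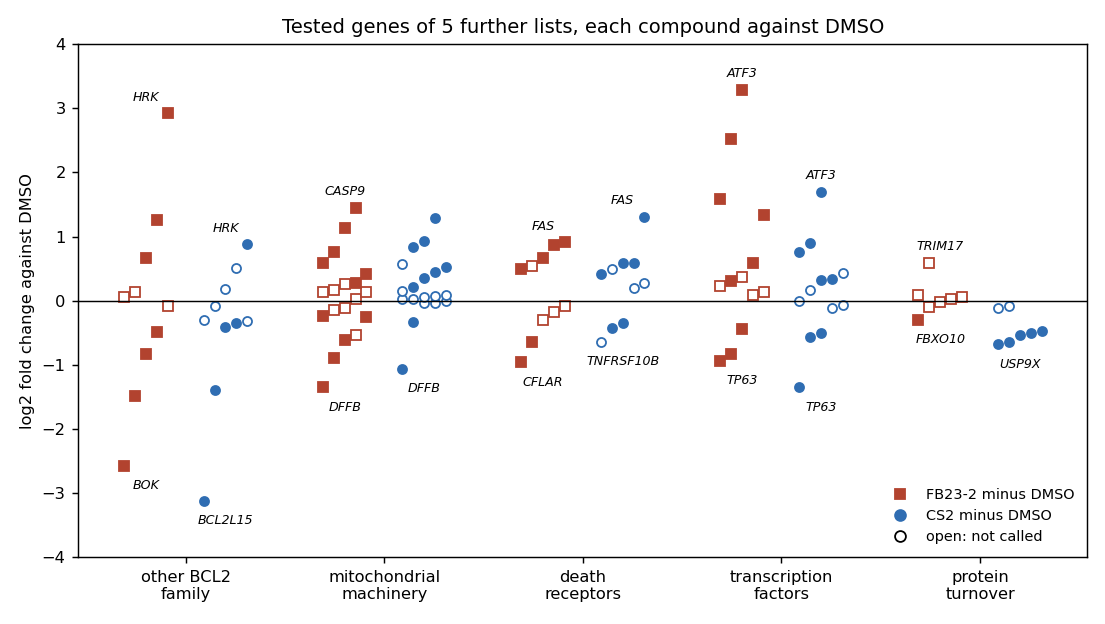
log2 fold change against DMSO (vertical axis) of the tested genes of 5 lists, squares for FB23-2 and circles for CS2, open where not called; some of the genes at the ends of a list are named. HRK (2.92) and ATF3 (3.29) lie highest with FB23-2, and the filled turnover genes lie below 0 with CS2.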

How the data were processed

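Per the labels' protocols, RNA came from TRIzol extraction and libraries from a Hieff NGS Ultima mRNA kit. The deposited values are raw read counts for each gene in whole numbers, and the submitters' processing notes name hg38 as the build. How reads were aligned, counted and assigned to strands is not stated in these sources. Columns headed FB23 were read as FB23-2, since no other H69 treatment begins so.

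Counts were filtered by group with filterByExpr (minimum count 10, minimum total 15), scaled by TMM and tested with edgeR 4.0.16 in R 4.3.3 (glmQLFit with robust estimation, glmQLFTest) in a single fit of all 9 libraries with group means and no covariate. The 19781 genes tested held 99.9% to 99.92% of the counts, and the biological coefficient of variation was 0.101. The SE is the log2 fold change divided by the square root of F. P-values measure the spread between libraries called biological replicates, and no pair of libraries agreed within sampling noise. Floors in counts cover counting error only. TPM, spans and overlaps used GENCODE release 29 on GRCh38, and promoters came from RefSeq GRCh38.p14. The fit was tested on simulated data. Alternatives, run one at a time, were RLE factors, library size alone, other filters on low counts, DESeq2 1.42.0, 2 groups only, a replicate block, an offset for GC content and gene span, no mitochondrial genes, each library left out, and the longest transcript as length.

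The members and gene lists were chosen with earlier results of these data known. The genes named are all members and all other family genes, and from each further list up to 4 with the largest called change for each compound, with DDIT3, ATF4 and E2F1 always. A few genes are not reported here by name, and others were named as the remainder of a count.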

Additional observations from a re-analysis of the deposited data

How the results depend on the processing

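The members called with CS2 numbered 7 under every alternative run, 5 higher and 2 lower. With FB23-2 they numbered 9 or 10, and between the compounds 9 or 10. Over all genes, the calls ranged from 8795 to 10698 with FB23-2, from 8345 to 11024 with CS2 and from 9989 to 12227 between the compounds. Of the values of single members under alternatives, 533 kept their direction and side of the threshold, 4 lost the call and 3 turned in sign.

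Values that turned in sign were, with the offset for GC content and span, BBC3 at 0.40 and BAD at 0.34 between the compounds, BCL2L12 at 0.15 with FB23-2 and MCL1 at 0.02 with CS2. Without DMSO replicate 1, MCL1 with CS2 was at 0.02 and BNIP3 with CS2 at 0.03. Without DMSO replicate 3, BCL2L12 with FB23-2 was at 0.03 and BNIP3 with FB23-2 at -0.01. Of these only BBC3 and BAD under the offset passed the test, and the cause was not tested.

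With the longest transcript as length, the DMSO levels of BCL2, MCL1, BAX, BAK1, BID, BBC3, BMF and PMAIP1 were 58.2, 254, 145, 30.4, 63.0, 11.1, 9.72 and 314 TPM, and the ratio of BH3-only to anti-apoptotic sums with CS2 was 1.53. Without PMAIP1 and MCL1 the mean ratio was 0.79 with FB23-2, 1.13 with CS2 and 0.445 with DMSO. Here the lengths and the members summed are by construction what differs.

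Leaving out a single library gave MCL1 with CS2 values from -0.06 to 0.02, BNIP3 with CS2 from -0.15 to 0.03 and BCL2L12 with FB23-2 from -0.26 to 0.03.

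No pairing by replicate number was seen with DMSO. Deviations of DMSO and treated libraries correlated between -0.03 and 0.02 with the same number and between -0.03 and 0.03 with different numbers. Between CS2 and FB23-2, libraries with the same number correlated at 0.17, 0.12 and 0.05, and those with different numbers between -0.14 and 0.02. Whether the numbers pair the libraries of these groups was not tested. The fit with a replicate block called 10271 genes with CS2, against 9829 without it, and again 7 members with CS2 and 10 with FB23-2. The offset for GC content and span moved several sizes, and the depth of 29916267 counts or more leaves BOK and BCL2L15 near the floor.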
